A study of Mus musculus with 33 samples.

Results

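The genes described here encode kinesins and other proteins that bind microtubules: the motors Kif21a, Kif13a, Kif1b and Kif5b, the plus-end proteins Clip1, Clasp1 and Clasp2, the lattice-binding protein Mtap4 (newer name Map4) and the crosslinker Macf1. They were chosen by name, with their isoform differences between genotypes already known, so those differences are given below as a description. Where they are counted against a threshold, the count describes their size beside the spread between libraries, and nothing is inferred from it. All 9 genes have a row in the 3′-end table, among 22970 rows. Of the 3885 splice events in the RASL-seq table, 20 belong to 8 of these genes, and Kif5b has none. A filter on low counts left 2032 events in all and 16 events of 7 of these genes.

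Kinesins are motors that walk along microtubules with organelles, vesicles or RNA as cargo. Plus-end proteins ride on the growing end of a microtubule and decide where it pauses, grows on or is captured, and proteins such as Map4 bind along its length and stabilise it. In cardiac myocytes, microtubules form a dense network around the nucleus and between the myofibrils, and this network changes with load and hypertrophy. Rbfox2 is an RNA-binding protein that recognises a short motif in introns and promotes inclusion or skipping of the nearby exon, depending on the side on which it binds.

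The study compared cardiac myocytes isolated from hearts of wild-type mice (WT) and of mice with a knockout of Rbfox2 (KO), all on the Black Swiss background. In RASL-seq, 2 DNA probes anneal side by side across a splice junction of captured poly(A) RNA, are joined by a ligase, and the products are amplified and counted. It was run at 5, 9 and 18 weeks of age. 3′-end RNA sequencing was run at 9 weeks. Of the 33 samples in the series, 8 were used, and each of the 8 groups has 3 numbered columns, taken as 3 libraries. The labels used here do not say which part of Rbfox2 was deleted, in which cells, or whether the libraries came from separate animals, so p-values measure the spread between libraries, which may be technical.

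The RASL-seq libraries held 1998027 to 12876511 counts and the 3′-end libraries 4007538 to 9563471 recovered reads. Rbfox2 itself gave 214.4 to 322.8 reads per 10000000 (RP10M) in WT and 66.4 to 117.3 in KO at week 9, without overlap. By its most counted RASL-seq event, numbered 7670, Rbfox2 gave 202 to 343 counts per 1000000 of the library (CPM) in WT and 18.0 to 93.2 in KO over all ages. In each age group of KO, a single library kept more Rbfox2 counts than the others: library 3 at week 5 (93.2 CPM against 41.3 and 44.8), library 1 at week 9 (82.4 against 26.96 and 29.9) and library 1 at week 18 (44.4 against 18.0 and 19.1). The genotype differences of some events are given with and without these libraries after the shares.

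Each event is known by its number in the table. In a cassette event, the long isoform holds the exon and the short isoform skips it. The share of the long isoform is its percentage of the event's counts, and since probe pairs can ligate unequally it is not the share of RNA molecules. Shares are given library by library, in the order 1, 2, 3, and means with their SD over 3 libraries. An event is past the threshold where edgeR's quasi-likelihood test of the isoform ratio gave an adjusted p under 0.05. Past it were 7 of the 16 events at week 5, 8 at week 9 and 8 at week 18. Over all 2032 events, 10.2%, 17.03% and 19.5% were past it at these ages. The genes were selected on this contrast, so nothing is read from their larger proportion. Of those events, 3, 3 and 4 had more of the long isoform in KO. In all, 7 events of 5 genes (Kif21a, Kif13a, Clip1, Mtap4 and Macf1) were past the threshold at all 3 ages, 2 events at 1 age and 7 at none. The median absolute difference over the 16 events was 4.47, 6.42 and 7.39 percentage points at weeks 5, 9 and 18, beside 1.89, 2.29 and 2.90 over all events.

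**Figure D1:**
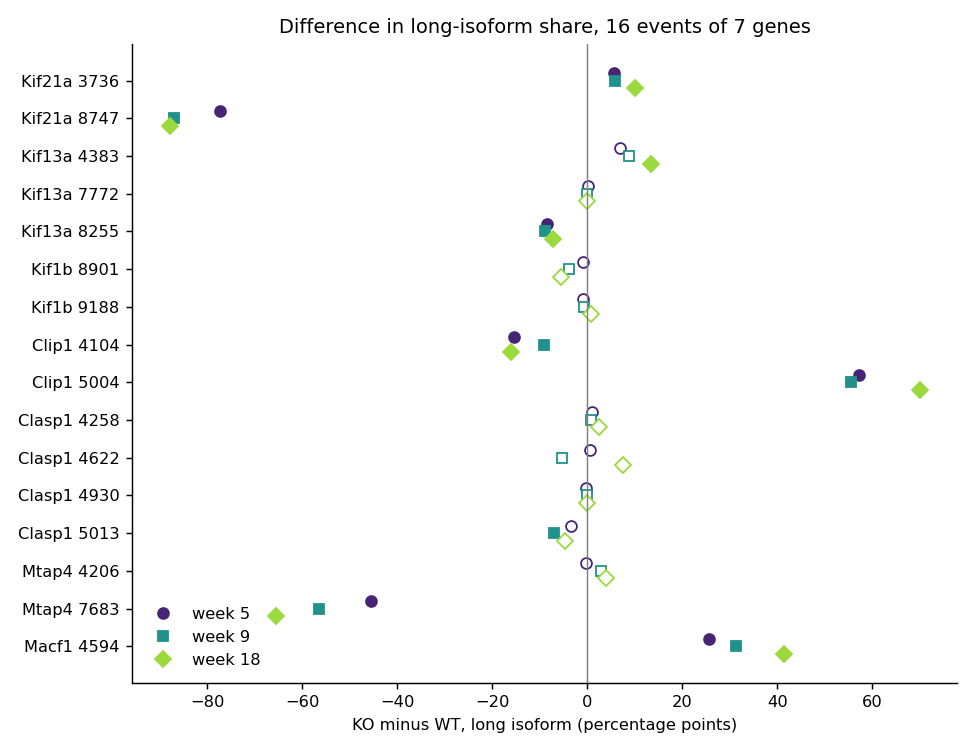
Difference in long-isoform share between the genotypes (KO mean minus WT mean, percentage points, horizontal axis) for the 16 events of 7 genes, 1 row per event. Circles are week 5, squares week 9 and diamonds week 18, each from 3 libraries per genotype. Filled markers are past the threshold and open ones are not. Kif21a 8747 and Mtap4 7683 lie far to the left, Clip1 5004 and Macf1 4594 far to the right, and both Kif1b events stay near 0.

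Among the motors, the widest difference was in Kif21a, a kinesin-4 family motor that slows microtubule growth at the cell cortex. Its cassette event 8747 was mostly in the long form in WT and mostly in the short form in KO. At week 5 the long share was 84.2%, 84.8% and 88.7% in WT and 5.70%, 6.67% and 13.1% in KO. At week 9 it was 89.6%, 92.0% and 95.8% in WT and 8.31%, 4.49% and 3.77% in KO. At week 18 it was 93.3%, 90.2% and 94.2% in WT and 4.28%, 4.77% and 5.07% in KO. KO minus WT came to -77.4, -86.9 and -87.9 points on average, and the highest KO library lay far below the lowest WT library at every age. The short isoform gave 9.71 ± 0.593 CPM in WT and 309 ± 22.4 in KO at week 5, and 6.74 ± 3.03 against 493 ± 85.6 at week 18. The long isoform went the other way by a smaller ratio, from 98.8 CPM (SD 11.02) in WT to 24.4 (SD 7.59) in KO at week 9. In counts, the short isoform was thus higher in KO by more than the long isoform was lower.

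A different cassette event of Kif21a, 3736, was mostly in the short form in both genotypes. Its long share was 1.23% ± 0.359, 1.60% ± 0.135 and 2.74% ± 0.104 in WT at weeks 5, 9 and 18, and 6.78% ± 1.11, 7.45% ± 1.88 and 12.8% ± 4.66 in KO (SD, n = 3). Every KO library was above every WT library, opposite in direction to event 8747. This event is the more heavily counted of the pair, with a total of 971 to 1519 CPM in WT against 62.3 to 113 CPM for event 8747. The remaining Kif21a event, 6938, did not pass the filter, with 4 long counts among 484 counts over all libraries.

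Kif13a, a kinesin-3 family motor that carries endosomes and their cargo receptors, held 2 events past the threshold at 1 age or more and 1 that was not. Event 8255 had a long share of 99.2%, 98.9% and 99.2% in WT at week 5 and 88.1%, 90.9% and 92.9% in KO. At week 9 it was 99.3% in every WT library and 92.0%, 90.0% and 89.4% in KO. At week 18 it was 99.4%, 99.4% and 99.4% in WT and 93.3%, 90.6% and 92.4% in KO. The exon was almost always included in WT and was skipped in a minority of the counts in KO, with no overlap. At week 9 the short isoform was at 5.44 ± 0.269 CPM in WT and 67.6 ± 7.38 in KO, and the long isoform at 786 ± 48.2 and 646 ± 40.2. The long isoform was lower in every KO library at each age, by more CPM than the short isoform was higher. Event 4383 was past the threshold at week 18 alone, with a long share of 11.8% ± 1.85 in WT and 25.3% ± 2.31 in KO. At week 5 its share was 14.2% ± 1.33 in WT and 21.03% ± 1.06 in KO, and every KO library was above every WT library. At week 9 its WT libraries spread from 9.21% to 22.8% and overlapped the KO libraries at 18.5% to 28.02%, and leaving out WT library 3 or KO library 1 of that age put it past the threshold. Event 7772 was at or near 0 for the long isoform, which gave 77 of 22207 counts, found in 4 libraries and nearly all of them in 1 WT and 1 KO library of week 5.

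Kif1b, the kinesin-3 motor of mitochondria and synaptic vesicle precursors, was not past the threshold at any age. The alternative 3′ splice site event 8901 had a long share of 70.5% to 77.6% over the WT libraries and 65.1% to 75.0% over the KO libraries. KO minus WT was -0.884, -3.80 and -5.57 points at weeks 5, 9 and 18, with overlap at each age. Its cassette event 9188 lay between 94.6% and 97.7% in all 18 libraries. At week 5 the log2 change of its isoform ratio was -0.40, and -0.83 and past the threshold without WT library 1. Kif5b, the widely expressed heavy chain of kinesin-1, has no event in the table.

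**Figure D2:**
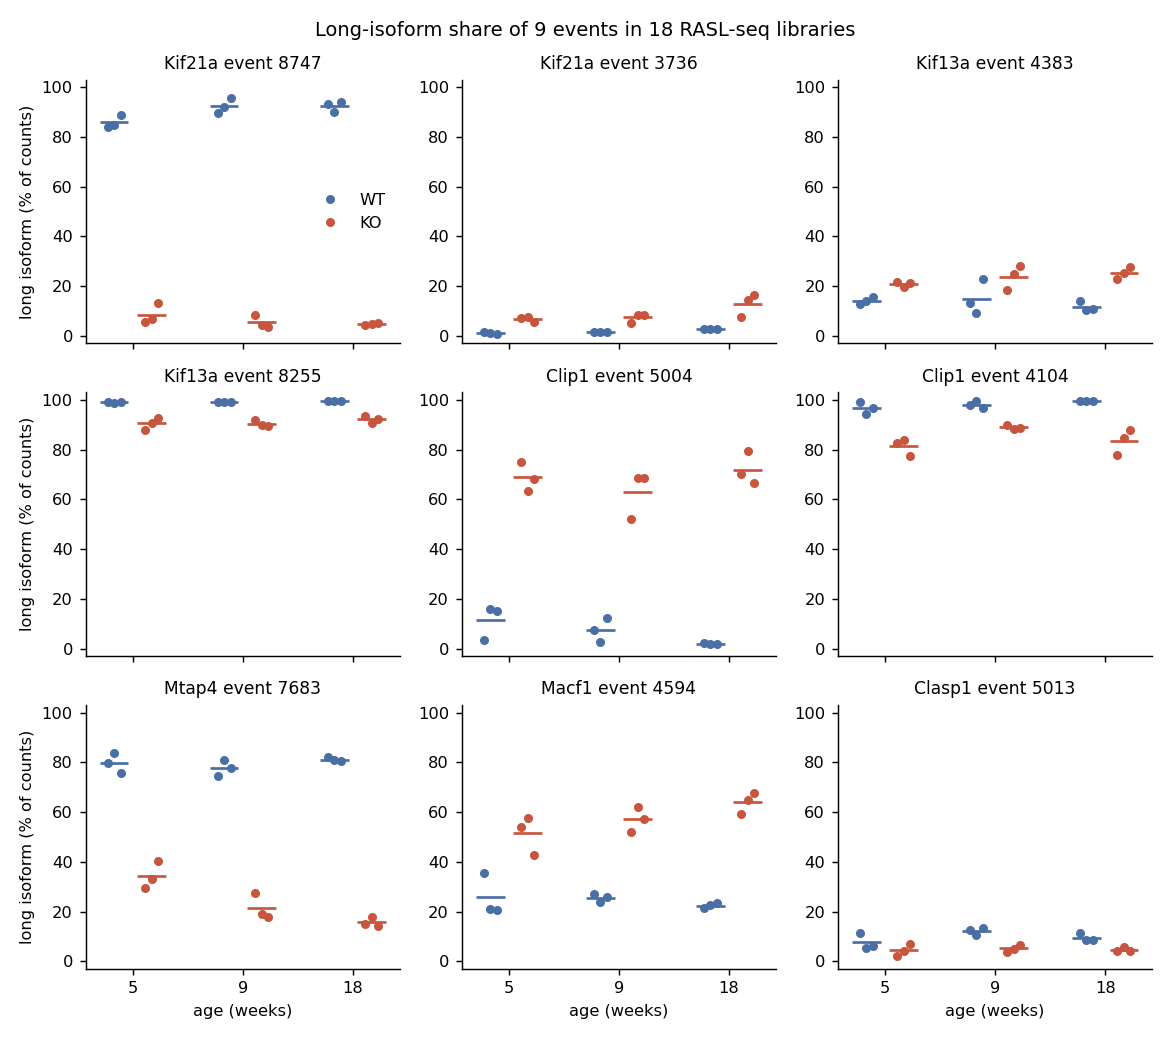
Long-isoform share (% of counts, vertical axis) against age (weeks) for the 9 events past the threshold at 1 age or more. Each point is a library, WT in blue and KO in red, and bars are means of 3 libraries. Kif21a 8747 and Mtap4 7683 drop from above 74% in WT to 40.2% or less in KO, and Clip1 5004 goes from 16.1% or less to above 52%.

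Among the plus-end proteins, Clip1 (CLIP-170), which binds growing microtubule ends and recruits dynactin, had 2 events with differences in opposite directions. The long share of event 5004 was 3.64%, 16.1% and 15.1% in WT at week 5 and 75.0%, 63.4% and 68.2% in KO. At week 9 it was 7.58%, 2.50% and 12.4% in WT and 52.1%, 68.4% and 68.4% in KO. At week 18 it was 2.11%, 2.04% and 1.79% in WT and 70.1%, 79.3% and 66.7% in KO. Event 5004 was thus mainly short in WT and mainly long in KO, 57.3, 55.5 and 70.0 points apart. For event 4104 the long share was 94.4% to 99.7% in WT and 77.4% to 90.1% in KO, again without overlap, and KO minus WT was -15.3, -9.05 and -16.1 points.

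The 2 Clip1 events are not independent, because the long count of 5004 and the short count of 4104 are the same column of the table. The 3 distinct columns show where the counts lie. In WT at week 18, the short isoform of 5004 held 15.2% ± 0.383 of them, the shared column 0.308% ± 0.0335 and the long isoform of 4104 84.5% ± 0.413. In KO at week 18 the same columns held 6.03% ± 2.41, 15.4% ± 4.47 and 78.6% ± 6.42. The shared intermediate column was also higher in KO at week 5 (17.2% ± 2.92 against 2.64% ± 1.83) and week 9 (10.3% ± 1.04 against 1.54% ± 1.12). The long isoform of 4104 was the most counted column in both genotypes, and in these percentages the genotypes differed mainly in the smaller columns. In counts it was otherwise. The long isoform of 4104 averaged 135 CPM in WT and 241 in KO at week 9, and 155 and 235 at week 18. Every KO library was above every WT library at these ages, and neither smaller column differed by as many CPM on average. At week 5 the libraries of the genotypes overlapped in this isoform. Clip1 event 7262 did not pass the filter, with 4 short counts among 3058.

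Clasp1, which binds the growing plus end and promotes pausing and regrowth, had no event past the threshold at all ages. Event 5013 was past it at week 9 alone, with a long share of 12.4%, 10.7% and 13.4% in WT and 3.76%, 5.05% and 6.71% in KO. Without KO library 2 of week 9 it was no longer past it. At week 18 its genotypes did not overlap either (9.41% ± 1.68 against 4.74% ± 0.987), and at week 5 they did, when leaving out KO library 3 put it past the threshold. Events 4258 and 4930 held little of the long isoform, 50 of 7917 counts and 215 of 90392 counts, and 4930 was past the threshold at week 5 without WT library 2. The long share of 4258 was higher in every KO library at week 9 (0.273% ± 0.267 in WT and 1.18% ± 0.871 in KO) and week 18 (0.244% ± 0.0707 and 2.72% ± 3.23). Event 4622 ranged from 61.4% to 83.8% in WT and from 58.0% to 81.6% in KO. It overlapped at weeks 5 and 9, and at week 18 every KO library was above every WT library (73.4% ± 4.37 and 80.9% ± 1.14). Neither 4258 nor 4622 was past the threshold at any age. For Clasp2, the closest relative of Clasp1, the only event (7858) gave 0 long counts among 2921, which allows a share of up to 0.103%, counting error only, and the same form was seen in both genotypes.

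Mtap4 (Map4), the main microtubule-stabilising protein of non-neuronal cells, gave the most heavily counted event of the set, 7683. Its long share was 79.6%, 83.8% and 75.7% in WT at week 5 and 29.3%, 33.1% and 40.2% in KO. At week 9 it was 74.6%, 81.1% and 77.7% in WT and 27.5%, 18.8% and 17.7% in KO. At week 18 it was 82.1%, 80.8% and 80.4% in WT and 15.2%, 17.8% and 14.2% in KO. The exon was included in most WT counts and skipped in most KO counts, with KO minus WT at -45.5, -56.5 and -65.4 points. The long isoform itself was of similar size in the genotypes at week 5 (1039 ± 192 CPM in WT and 1002 ± 112 in KO), while the short isoform was 266 ± 82.4 CPM in WT and 1942 ± 255 in KO. By week 18 the short isoform stood at 240 ± 15.2 CPM in WT and 3787 ± 280 in KO, and the long isoform at 1029 ± 8.52 and 707 ± 111. Mtap4 event 4206, with a long share of 88.9% to 98.8% in all libraries, was not past the threshold. Its short count is the long count of event 3871, which held 213 counts in all and did not pass the filter.

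Macf1 encodes a spectraplakin, a giant protein that links microtubules to actin filaments. Its event 4594 had a long share of 35.7%, 20.9% and 20.5% in WT at week 5 and 53.9%, 57.6% and 42.9% in KO. At week 9 it was 27.1%, 23.8% and 25.97% in WT and 52.0%, 61.9% and 57.2% in KO. At week 18 it was 21.3%, 22.5% and 23.4% in WT and 59.35%, 64.7% and 67.5% in KO. All KO libraries were above all WT libraries at each age, by 25.7, 31.4 and 41.5 points on average. Both isoforms contributed at week 18, when the long form gave 71.3 ± 13.8 CPM in WT and 267 ± 109 in KO and the short form 246 ± 36.5 and 146 ± 36.5.

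**Figure D3:**
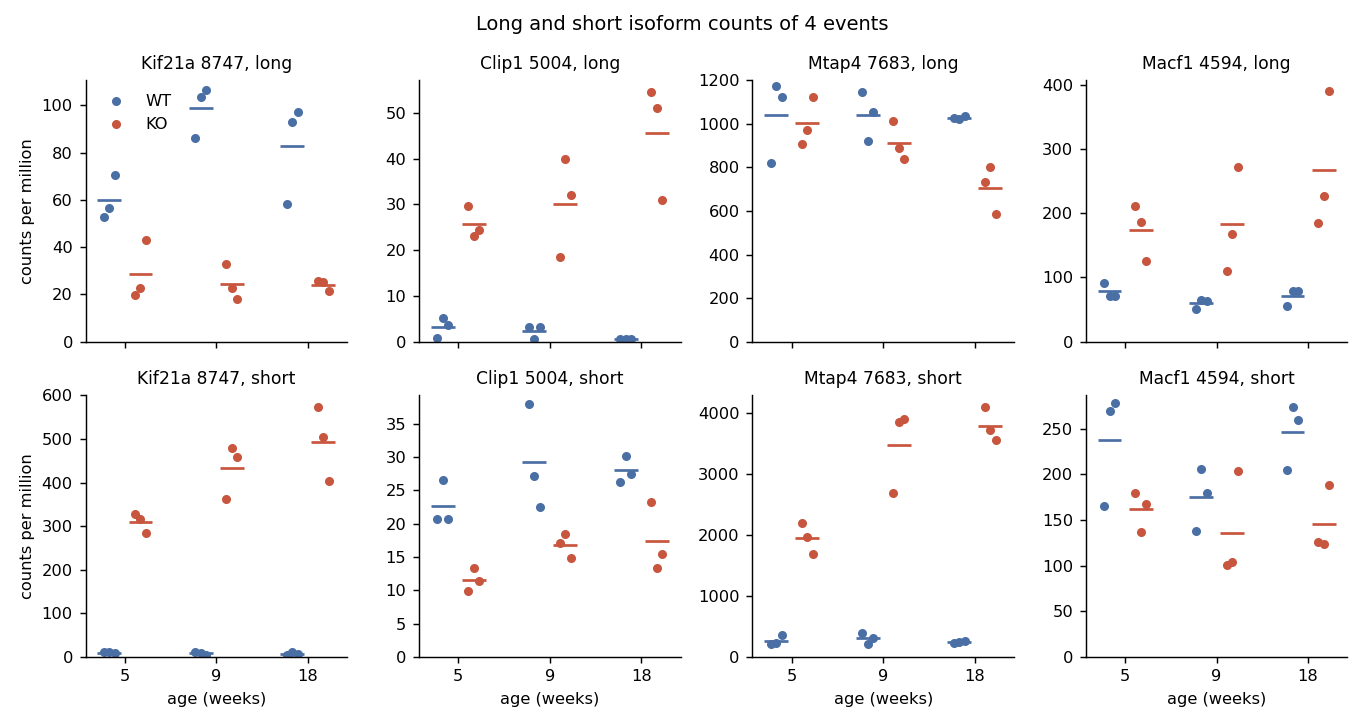
Counts per 1000000 of the long isoform (upper row) and the short isoform (lower row) of 4 events against age (weeks), with a vertical axis from 0 in each panel. Points are libraries, WT in blue and KO in red, and bars are means of 3. The short isoforms of Kif21a 8747 and Mtap4 7683 are far higher in KO, while the long isoform of Mtap4 7683 overlaps between genotypes at weeks 5 and 9.

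The KO library with the most Rbfox2 counts was compared with the KO library nearest to WT in share. They were the same library for 5 of the 7 events past the threshold at week 5, for 7 of 8 at week 9 and for 4 of 8 at week 18. These events were read in the same libraries, and Clip1 4104 and 5004 share a column, so they are not separate observations. The proportion over all events was not computed, so nothing is read from these counts. With all libraries, KO minus WT of Kif21a 8747 was -77.4, -86.9 and -87.9 points at weeks 5, 9 and 18. Without the KO library of most Rbfox2 counts it was -79.7, -88.3 and -87.7 points. It was 57.6, 60.9 and 71.0 points for Clip1 5004 and -48.4, -59.5 and -65.1 points for Mtap4 7683. For these 3 events the differences were thus as large or nearly as large without that library. Clip1 4104 gave -13.4, -9.57 and -13.3 points without it, beside -15.3, -9.05 and -16.1. Clasp1 5013 gave -6.30 points at week 9, beside -7.00. Differences were larger in size without it for Kif21a 3736, Kif13a 8255 and Macf1 4594 at each age, and for Kif13a 4383 at week 18. The part that remaining Rbfox2 has in the spread between KO libraries was not tested. With 3 libraries to an age, this is a description.

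**Figure D4:**
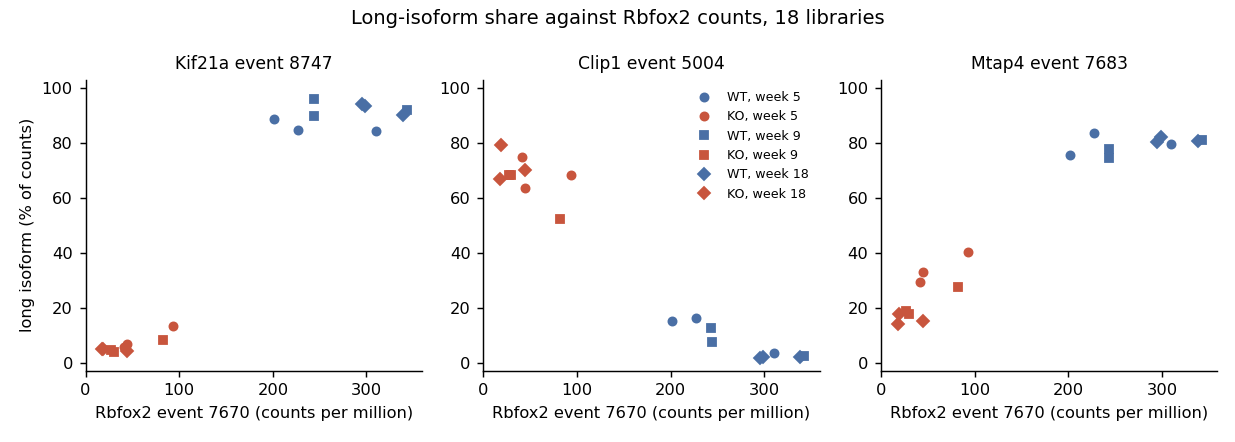
Long-isoform share (% of counts, vertical axis) of Kif21a 8747, Clip1 5004 and Mtap4 7683 against the counts per 1000000 of Rbfox2 event 7670 (horizontal axis) in the 18 RASL-seq libraries. Blue is WT and red is KO, with circles for week 5, squares for week 9 and diamonds for week 18. The genotypes form separate clusters at 18.0 to 93.2 and 202 to 343 CPM, and no correlation is given for them.

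The shares were also compared between ages within each genotype, week 18 against week 5. These are other contrasts than that of the choice, but they use the same libraries, so the age changes too are a description, with no p for single events. In KO, the long share of Mtap4 7683 fell from 34.2% ± 5.497 to 15.7% ± 1.87, a log2 change of the isoform ratio of -1.48, past edgeR's threshold leaving out any 1 library. All 3 KO libraries of week 18 were below all 3 of week 5. In WT the same event stood at 79.7% ± 4.03 and 81.1% ± 0.897, which overlapped. This was the 1 of 16 events that changed in KO, where 3.44% of all events did, and leaving out KO library 1 or 3 of week 18 made it 2 events, with Kif21a 3736 and Clasp1 4930 respectively. The age changes of the genotypes were not tested against each other. In the KO libraries 1, 2 and 3, Rbfox2 event 7670 gave 41.3, 44.8 and 93.2 CPM at week 5. At week 18 it gave 44.4, 19.1 and 18.0 CPM, so most KO libraries of week 18 also held fewer Rbfox2 counts. The part that remaining Rbfox2 has in the age changes of KO was not tested.

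In WT, 2 of 16 events changed with age, beside 5.86% of all events. The long share of Kif21a 3736 rose from 1.23% ± 0.359 to 2.74% ± 0.104 (log2 change 1.17). That of Clip1 4104 rose from 96.7% ± 2.38 to 99.6% ± 0.0409 (log2 change 2.98). Both were higher in 3 of 3 libraries, and both lost the call without WT library 2 or 3 of week 5 or without any of the week 18 libraries. Without WT library 1 of week 5, 5 of the 16 events passed. Clip1 5004, which shares a column with 4104, went from 11.6% ± 6.90 to 1.98% ± 0.172 in WT without passing the threshold, which it passed by DESeq2, without the filter and without WT library 1 of week 5.

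Total counts of an event, short and long together, were compared as a further readout. Past the threshold were 3 of 16 events at week 5 (2 higher in KO, 1 lower), 4 at week 9 (all higher) and 6 at week 18 (5 higher, 1 lower). Over all events, 7.87%, 12.6% and 19.6% were. The total of Kif21a 8747 was 69.7 ± 8.84, 107 ± 9.19 and 89.5 ± 23.6 CPM in the WT groups of weeks 5, 9 and 18. In the KO groups it was 338 ± 9.98, 457 ± 56.0 and 517 ± 87.7 CPM. For the better counted event 3736 of the same gene, the total was 1007 ± 46.3, 1240 ± 63.0 and 1412 ± 93.1 CPM in the WT groups and 1055 ± 45.0, 1208 ± 182 and 1257 ± 258 CPM in the KO groups. The totals of these Kif21a events therefore did not move alike, and a total can move with the isoform ratio where the probe pairs of the isoforms ligate unequally. For that reason the totals are given as a description, without a p for single events.

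The total of Mtap4 7683 had a log2 change of 1.26, 1.73 and 1.83 at weeks 5, 9 and 18, past the threshold at each age, while that of Mtap4 4206 gave 0.01, 0.72 and 1.05 and was not past it. At week 18 it was past it by DESeq2, with RLE size factors, without the filter and without WT library 2 or KO library 1. Clip1 4104 gave 0.64, 1.02 and 0.86, past it at weeks 9 and 18, and Clip1 5004 gave 0.60, 0.62 and 1.15, past it at week 18. Within Kif13a the totals of event 8255 were lower in KO (-0.66, -0.13 and -0.50, past it at weeks 5 and 18) and those of event 4383 higher (0.34, 0.59 and 0.75, past it at weeks 9 and 18). The total of Kif13a 8255 at week 18 was no longer past the threshold without WT or KO library 2 of that age, nor was that of Clip1 4104 without WT library 1 or KO library 2. Passing in addition were Clip1 4104 at week 5 without KO library 3, and Clip1 5004 at week 9 by DESeq2 and without WT library 1 or KO library 1. The events listed under Kif1b, Clasp1 and Macf1 were not past it at any age with all libraries.

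The level of the 9 genes was measured by 3′-end sequencing at week 9. None passed limma's test at an adjusted p under 0.05, and 4 had an unadjusted p under 0.05. Over all 10858 genes tested, 1.60% passed and 17.1% had an unadjusted p under 0.05 by limma. edgeR and DESeq2 on the recovered reads likewise passed 0 of the 9, with 5 at an unadjusted p under 0.05 by each. Over all genes, 1868 of 10858 by edgeR and 1736 of 10839 by DESeq2 were under it. The genes are too few to read these counts against that background. The median log2 change was -0.08 over the 9 genes and 0.07 over all genes. In such bulk samples, fewer cells of a type and less RNA per cell cannot be told apart.

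Kif21a gave 348.6, 215.3 and 318.9 RP10M in the WT libraries and 197.1, 193.5 and 103.3 RP10M in those of KO. No library overlapped, with a log2 change on the log2(RP10M + 1) scale of -0.86 (SE 0.31, limma adjusted p = 0.188). Kif13a gave 381.1, 343.8 and 511.3 RP10M in the WT libraries and 304.4, 236.5 and 304.2 RP10M in those of KO, again without overlap (log2 change -0.54, SE 0.23, limma adjusted p = 0.267). Kif1b gave 330.9, 251.5 and 850.1 RP10M in the WT libraries and 521.5, 608.3 and 532.9 RP10M in those of KO, so that WT library 3 stood above every KO library and the others below. Without that library Kif1b was past the threshold (log2 change 0.94, limma adjusted p = 0.0371, and 0.0371 to 0.958 over all alternatives). For Kif5b the levels were 4564.1, 4375.2 and 3849.0 RP10M in the WT libraries and 4177.1, 4653.9 and 3337.4 RP10M in those of KO (log2 change -0.08, SE 0.16, limma adjusted p = 0.849).

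Clip1 gave 7527.7, 3336.6 and 3743.4 RP10M in the WT libraries and 3673.1, 2469.9 and 1757.2 RP10M in those of KO. WT library 1 stood apart and the groups overlapped (log2 change -0.85, SE 0.37, limma adjusted p = 0.288). Clasp1 (613 ± 120 RP10M in WT and 726 ± 79.0 in KO) and Clasp2 (252 ± 51.3 and 239 ± 41.1) overlapped as well. Mtap4 gave 5429.4, 4328.1 and 6656.6 RP10M in the WT libraries and 7660.6, 7416.1 and 8140.6 RP10M in those of KO. All 3 KO libraries were above all WT libraries (log2 change 0.52, SE 0.17, limma adjusted p = 0.148), and without WT library 3 the gene was past the threshold (log2 change 0.67, limma adjusted p = 0.0332, and 0.0332 to 0.462 over all alternatives). Macf1 gave 1256 ± 264 RP10M in WT and 982 ± 76.6 in KO, with overlap (log2 change -0.33, limma adjusted p = 0.419). The 3′-end levels were thus not shown to differ. For Kif21a the 3′-end level was lower in every KO library of week 9, while the total of its event 8747 was higher in every KO library of that age.

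**Figure D5:**
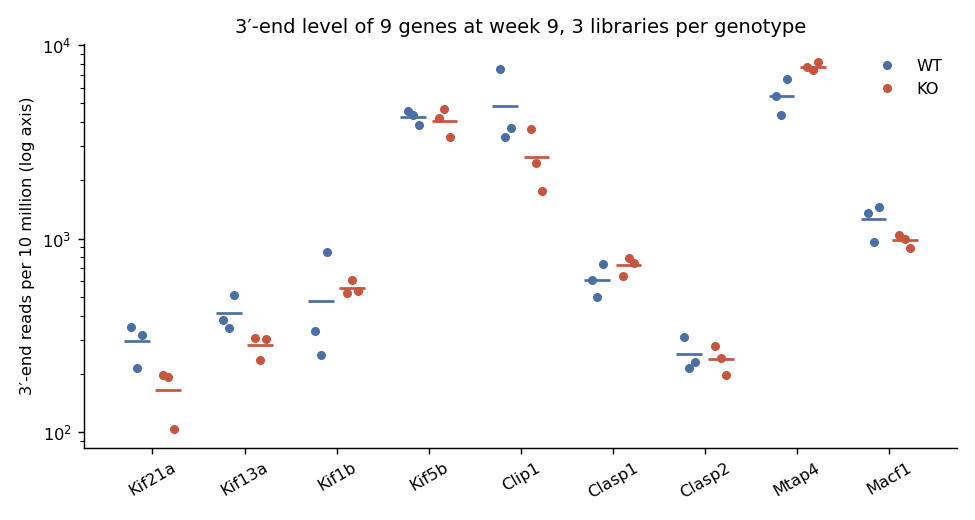
3′-end level (reads per 10000000, log axis) of the 9 genes at week 9. Points are libraries, WT in blue and KO in red, and bars are means of 3, to be compared within a gene. Kif21a and Kif13a are lower in every KO library and Mtap4 is higher in every KO library, but no gene passed the test.

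Listed marker genes of cell types, those of ventricular myocytes included, moved with genotype in part at week 9. A change in the number of such cells and a change in RNA per cell cannot be told apart here. The summed level of 5 atrial myocyte markers was 754.9 to 2350.5 RP10M in WT and 17951.3 to 33853.7 in KO, and 4 of the 5 rose. Fibroblast markers summed to 703.8 to 4723.1 RP10M in WT and 3910.1 to 6143.5 in KO, with 1 of 7 tested genes past the threshold and 7 of 7 higher. Macrophage markers, at 275.3 to 847.9 RP10M in WT and 975.6 to 1305.4 in KO, had 0 of 7 past the threshold by limma, with 3 at an unadjusted p under 0.05. The 6 smooth muscle and pericyte markers summed to 3135.7 to 4029.7 RP10M in WT and 1612.1 to 2827.2 in KO. Of these Acta2 fell (2651 ± 452 RP10M in WT and 741 ± 378 in KO), while 3 of the 6 were higher in KO without passing the threshold, among them Myh11 (705 ± 179 and 1052 ± 269). Endothelial markers overlapped in their sum, and 0 of 8 passed the threshold. Of these Cdh5 was lower in every KO library (251 ± 41.9 RP10M in WT and 166 ± 9.88 in KO), while 3 of the 8 were higher in KO, among them Esam (507 ± 210 and 654 ± 102). Neuronal and Schwann cell markers were low in both genotypes, at 59.7 to 94.9 RP10M with 2 of 6 listed at 0 in every library. The 10 ventricular myocyte markers summed to 1040180 to 1187780 RP10M in WT and 1120460 to 1192290 in KO, and 2 of them, Myl2 and Ryr2, fell. Of the 10, 5 were higher in KO without passing the threshold, among them Mybpc3 (46729.7 ± 9377 RP10M in WT and 70957.5 ± 2887 in KO). Myl2 was not past the threshold leaving out KO library 2 or 3, nor was Ryr2 leaving out any library except WT library 2. Acta2 and the atrial Nppa no longer passed limma's test leaving out WT library 2 or either of KO libraries 2 and 3. The atrial Myl7 and the fibroblast Mfap5 no longer passed leaving out WT library 2 or any KO library. Myl7 also did not pass without the filter or with TMM scaling (limma adjusted p = 0.0655 and 0.0621), nor Mfap5 by edgeR (adjusted p = 0.0531). The part of these markers in the levels and shares above was not tested.

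The rest of the microtubule system was taken from 6 lists, without the 9 genes. Of 134 further genes tested by 3′-end level, 3 rose in KO and none fell by limma, with 23 at an unadjusted p under 0.05. These are 2.24% and 17.2% of the lists, near the 1.60% and 17.1% of all genes tested. The genes that rose were Mtap1a, which encodes a microtubule-binding protein best known from neurons (397 ± 105 RP10M in WT and 1442 ± 73.1 in KO, log2 change 1.89, limma adjusted p = 0.0032), Map1lc3a, an autophagosome protein (5701 ± 447 and 9094 ± 464, 0.68, limma adjusted p = 0.0356), and the β-tubulin gene Tubb2a (106 ± 23.2 and 304 ± 40.8, 1.53, limma adjusted p = 0.0201). Mtap1a passed under all 14 alternatives, with a limma adjusted p of up to 0.0408. Tubb2a did not pass without WT library 2 or any KO library (limma adjusted p up to 0.160), nor Map1lc3a without WT library 1 or 2 or any KO library (up to 0.263). Map1lc3a also did not pass with TMM scaling (limma adjusted p = 0.0701) or by edgeR (adjusted p = 0.0939). Without WT library 3, 9 of the 134 genes passed, and leaving out WT library 2 or either of KO libraries 2 and 3, 1 did. None of the 21 other kinesin motor and light chain genes, 26 dynein and dynactin genes, 17 other plus-end genes and 24 genes of tubulin modification, folding and severing passed limma's test. At an unadjusted p under 0.05 these lists held 3, 4, 2 and 7 genes. Tubulin genes share near-identical copies, so their reads may be split between them.

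Isoform shares of the lists were measured by 34 events of 23 genes. Past the threshold were 6 at week 5, 10 at week 9 and 7 at week 18, with the long isoform higher in 0, 4 and 2 of them. These are 17.6%, 29.4% and 20.6% of the events, beside 10.2%, 17.03% and 19.5% of all events, so that at week 18 the lists lay near the background. The lists were chosen with earlier results of these data known, so nothing is read from the larger proportions at weeks 5 and 9. Leaving out a library gave 2 to 7 events at week 5, with 2 without WT library 1 and 3 without any of WT library 2 and KO libraries 1 and 2 in turn. It gave 5 to 12 at week 9, with 6 without WT library 3 and 5 without KO library 2. Among these, Kifap3, the subunit that ties the kinesin-2 motor to its cargo, had a long share in event 4915 of 44.1% ± 7.45 in WT and 10.3% ± 1.19 in KO at week 18. Tacc2, a centrosomal and plus-end protein, gave 80.6% ± 1.42 and 47.1% ± 8.62 in event 8371 at that age. Slain2, a plus-end protein that promotes growth, gave 35.9% ± 4.59 and 7.85% ± 8.58 in event 4263 at week 9. In the opposite direction, Ndel1, a dynein regulator, gave 36.6% ± 4.13 and 64.1% ± 6.02 in event 4699 at week 9, and Phldb2, a cortical anchor of microtubule ends, 64.3% ± 1.34 and 84.1% ± 4.49 in event 8575 at week 18. Kifap3 and Tacc2 were past the threshold at all 3 ages, Slain2 at weeks 5 and 9, Phldb2 at weeks 9 and 18 and Ndel1 at week 9 alone, with overlap at week 5. At week 5, Kifap3 and Slain2 lost the call leaving out each of 4 of the 6 libraries in turn, Slain2 also by limma and DESeq2, and Tacc2 without WT library 1. At week 18, Slain2 was past it by limma, by DESeq2, without the filter and without KO library 2. At week 9, Slain2 was not past the threshold without KO library 2, and Ndel1 was not without WT library 3 or KO library 2 or 3. These 5 have the largest mean differences among the listed events past the threshold at any age.

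For the widest event of Kif21a, Clip1 and Mtap4, the events of other genes with the nearest shares over all 18 libraries were looked up among the 2032. Kif21a 8747 lay nearest to event 4742 of the actin regulator Enah, at a mean absolute difference of 5.04 points per library, then to Myo9b 4625 at 10.7 and 1700012B15Rik 8621 at 11.2. Enah 4742 stood at 86.3% in WT and 7.39% in KO at week 9. Clip1 5004 lay nearest to event 4048 of Sorbs2, an adaptor at Z-discs, at 4.68 points, then to Pb1 3769 at 5.65 and Dnm1l 3927 at 5.71. Mtap4 7683 lay nearest to Lman2l 7161 at 5.54 points, then to AU040829 4403 at 7.37 and 1700012B15Rik 8621 at 8.77. All 18 libraries share the same genotype contrast, so this likeness is a description of shares.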

How the data were processed

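Cardiac myocyte RNA was measured by 3′-end RNA sequencing (2 samples, week 9) and RASL-seq (6 samples, weeks 5, 9 and 18), with 3 columns per sample. The 3′-end values, as the authors deposited them, are a signal for each gene, scaled to reads per 10000000 per the file headers. Dividing by the value of 1 read gave whole reads for 99.9% to 100% of them, within 0.1 read. The values of WT library 2 sum to 9529440. The RASL-seq values are unnormalised isoform counts, deposited by the authors as a short and a long column per library. Bowtie 0.12.7, cutadapt 1.2.1 and the build mm9 appear in the submitters' processing notes, without a role. No reference of that build was used, so no coordinates or sequences are given.

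Columns of a group differed by a chi-square of 5.84 to 64.6 per degree of freedom, so they were counted as separate libraries. No label says that libraries of the same number belong together, so they were not paired. Same-numbered 3′-end libraries correlated at 0.279, 0.0593 and 0.193 in their deviations from the group means. Differently numbered libraries were not compared, so a batch shared by number was not tested.

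Levels were tested with limma 3.58.1 (trend, robust; R 4.3.3) on log2(RP10M + 1) where a gene's mean reached 10, which understates changes of low genes. Isoform ratios were tested with edgeR 4.0.16 (quasi-likelihood, a term per library and isoform by group) over events that averaged 20 counts or more, with 1 or more of each isoform, and totals with edgeR and TMM. All 18 RASL-seq libraries entered each fit. p-values were adjusted by Benjamini-Hochberg over all features, with a threshold of 0.05. The scripts were tested on simulated data. The design assumed normalised values for the 3′-end table, as found. Counts are of PCR products with no molecular identifier, so floors cover counting error only.

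The members and lists were chosen with earlier results of these data known. Every row and event of the member names is reported. From each list up to 3 genes of smallest adjusted p were considered, and those that passed were named, with 5 events of largest mean difference. Alternatives were other pseudocounts, filters and scalings, DESeq2 1.42.0, limma on log ratios, a replicate block and leaving out each library.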

Additional observations from a re-analysis of the deposited data

Results flagged for a closer look

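The long share of Kif21a 8747 moved in opposite directions with age in the genotypes. In WT every week 18 library was above every week 5 library, with a mean difference of 6.71 points (85.9% ± 2.44 to 92.6% ± 2.09). In KO every week 18 library was below every week 5 library, with a mean difference of -3.80 points (8.51% ± 4.05 to 4.71% ± 0.400). At week 5, KO library 3, which kept the most Rbfox2 counts, was at 13.1%, beside 5.70% and 6.67% in the others. Without that library the KO mean of week 5 was 6.19%. Neither change passed the threshold by edgeR, and the difference between the genotypes' age changes was not tested. The groups hold 3 libraries, so no library was tested for standing apart from its group.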

How the results depend on the processing

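Over the alternatives run, no called value reversed. Under the alternatives, 2019 values of named genes, events and list counts stayed on their side of the threshold or within 1.5 times, 38 were stronger and 83 weaker. Counts of member events past the threshold in the genotype contrasts, shares and totals, stayed within 1.5 times. For the 3′-end level, 1 of the 9 genes passed with a replicate block (Clip1, limma adjusted p = 0.0266, range 0.0266 to 0.614). The block pairs libraries by number, and whether same-numbered libraries share a batch was not tested. Leaving out a library gave 0 to 2, with 2 without WT library 3. With age in WT, 4 events passed without the filter on low counts and 0 to 5 leaving out a library (0 without WT library 2 or 3 of week 5 or any of week 18, 5 without library 1 of week 5). With age in KO, 2 passed without the filter and 1 to 2 leaving out a library (2 without library 1 or 3 of week 18). The cause was not tested. Same-numbered RASL-seq libraries correlated at -0.0681 to 0.0727 in their deviations from the group means, and the replicate block gave 3 list events at week 5 in place of 6. Over all genes, the 3′-end level passed for 174 genes, for 338 with the replicate block, for 461 by DESeq2 and for 114 by edgeR. Leaving out WT library 2 gave 42 genes and leaving out WT library 3 gave 420. Leaving out KO library 1 gave 58, and either of KO libraries 2 and 3 gave 18. Among the lists, 9 genes passed by DESeq2 and 6 with the replicate block. The block also put Kif13a 4383 at week 9 (share) and Clasp1 4258 at week 18 (total) past the threshold. Depth limits the Kif21a 6938 and Mtap4 3871 events, with 484 and 213 counts over all libraries.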

Other observations

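The RASL-seq table also holds 2 cassette events under the name Macf, which RefSeq lists as a synonym of Macf1, and which the choice by name left out. Event 3869 had a long share of 99.1% ± 0.297 in WT and 99.2% ± 0.0955 in KO at week 5, and 98.5% ± 0.140 and 99.0% ± 0.255 at week 18. Event 4644 had 1.40% ± 0.835 and 1.02% ± 0.360 at week 5, and 0.843% ± 0.169 and 1.23% ± 0.373 at week 18. Neither share was past the threshold at any age, so the Macf1 difference above is that of event 4594. The total of event 4644 was higher in all KO libraries at week 18 (138 ± 17.3 CPM in WT and 206 ± 30.5 in KO, log2 change 0.59) and past the threshold, which it was not without WT library 1 or KO library 2. It was not past it at weeks 5 and 9, nor was the total of event 3869 at any age.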
